A study of Rattus norvegicus with 4 samples.

Results

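Footpad skin collected on day 6 of a rat model of radiation dermatitis was compared with footpad skin collected on day 3, across all genes. The comparison used 2 of the 4 libraries of the series, joined by gene identifier: 18957 genes or transcript entries were listed in at least 1 of the 4 libraries, 17096 of them on day 3 or day 6, and 5101 reached 50 counts on at least 1 of these 2 days. Radiation dermatitis is the skin injury that follows radiotherapy. The skin came from the hindlimb of Sprague Dawley rats, an outbred stock, and was measured as digital gene expression tags, 21-base sequences that begin at a CATG site of a transcript and are counted.

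By the protocol in the labels, the footpad received 10 Gy on each of days 1, 2, 4 and 5, from a 9 MeV electron beam at 500 cGy per minute. The day 3 skin therefore followed 2 irradiations and the day 6 skin followed 4. The sample descriptions are not the same as the protocol: they name irradiation on day 2 for the day 3 skin and on day 4 for the day 6 skin, without the other days. Skin of day 0, before irradiation by the protocol, and of day 9 is given beside the compared days as values only. Each day was 1 library, and neither the number of animals behind it nor their sex, age or the hour of collection is given. There was thus no replicate error and no test between animals. On days 0, 3, 6 and 9 the Y-linked genes Eif2s3y and Kdm5d had 0, 118, 92 and 130 and 0, 25, 36 and 26 counts. Ddx3y, another such gene, had 1029, 739, 469 and 870. Whether the animals of day 0 differed in sex from those of the other days was not tested. Every ratio below compares 2 libraries, and every range in brackets is an exact 95% interval that covers counting error only. The day 3 and day 6 libraries held 1968034 and 1967902 gene counts.

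Hairless footpad skin is a layered tissue. Its epidermis is renewed by division of basal keratinocytes, and ionizing radiation stops that division for a time through p53 and its target p21. Under the epidermis lie the dermis with eccrine sweat glands, then fat and the small muscles of the foot, whose cells do not divide. Transcripts of dividing cells can therefore change with the tissue's own proliferation and with how much epidermis a piece of skin holds. Transcripts of muscle, fat and gland can also change with how much of each deep tissue the piece holds. In a bulk sample, fewer cells of a type and less RNA per cell cannot be told apart.

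A gene was called by size, which took a ratio of scaled counts of 2 or more, 50 or more counts on the day with the larger count, and an interval without 1. By this rule 147 genes were higher on day 6 (2.88% of 5101) and 344 were lower (6.74%), or 491 in all (9.63%). These percentages are the background for the counts of every gene list below. The split depended on the scale: 84 were higher and 415 lower with the authors' own normalized value, and 47 and 680 when the libraries were scaled to the summed basal keratinocyte genes, which moved the median of all genes by −0.38 on the log2 scale. The median log2 ratio of the 9846 genes with a mean of at least 10 counts over both days was 0.02, with 5059 above 0 and 4787 below. Among differences of 4-fold or more, 110 genes were lower on day 6 and 20 were higher. Of the 110, 48 stood in a list of skeletal muscle genes, 6 in a fat list and 5 in a sweat gland list. Of the 20, 7 were cell division genes. Tags that stood in no gene were counted by the same rule, and of 2739 such tags 212 (7.74%) were higher and 211 (7.7%) lower.

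**Figure D1:**
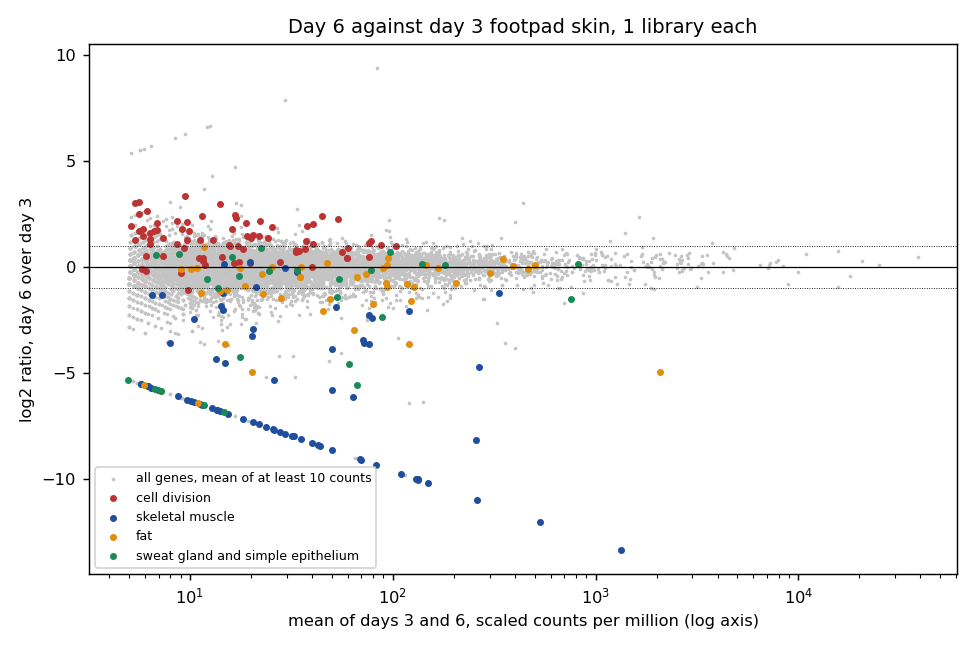
The log2 ratio of day 6 over day 3 (vertical axis) is plotted against the mean scaled CPM of both days (horizontal log axis) for 9846 genes with a mean of at least 10 counts, 1 library a day, with dotted lines at 2-fold. Cell division genes lie mostly above 0, and muscle genes form the diagonal edge at the bottom, which holds genes with 0 counts on day 6, whose plotted ratio depends on the prior count of 0.5.

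The tags that carried the main differences are shown first, because a gene's count in this assay is the sum of its tags and often rests on 1 of them. Capitals mark the CATG at which the tag starts. The tags were not placed on a genome here. The first pair comes from genes higher on day 6, the next pair from muscle, and the last 4 from fat and gland.

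Cdk1: CATGtaaatattattccatat
Rrm1: CATGtgacatagataggcata
Myl1: CATGtaccacctttatgatct
Myh2: CATGtgattctatttaatcct
Adipoq, most abundant tag: CATGagtactcatttgttcat
Adipoq, another tag: CATGgcttctgcgttagttcc
Krt19: CATGataaagttcacaccagc
Slc12a2: CATGggctgaatgctgctatc

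On days 0, 3, 6 and 9 the Cdk1 tag had 83, 37, 174 and 78 copies and the Rrm1 tag 100, 32, 127 and 48. The Myl1 tag had 1991, 5306, 0 and 4646 copies, and the Myh2 tag 976, 2110, 0 and 1601. The first Adipoq tag had 17, 253, 26 and 89 copies and the second 24, 185, 9 and 69, so both tags of this gene were lower on day 6. The Krt19 tag had 84, 259, 5 and 85 copies and the Slc12a2 tag 124, 251, 44 and 151.

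Cell division genes were higher in the day 6 library. Of 144 listed genes of DNA replication and mitosis, 116 were found, 31 reached 50 counts, and 20 of these were called higher and 0 lower, where 2.88% of all tested genes were called higher. The median log2 ratio of the 78 members that averaged 10 counts or more was 1.28, with 74 above 0 and 4 below. Their summed level, in scaled CPM (counts relative to the TMM-scaled library total), was 1978 on day 0, 1189 on day 3, 2582 on day 6 and 1337 on day 9. Day 3 was the lowest of the 4 days and day 6 the highest. Members with fewer counts could not pass the rule, and 12 of the 116 were at 0 on day 3 against 1 on day 6. With the libraries scaled to the basal keratinocyte genes, 13 members were called higher and the median was 0.90. Most of the 20 were seen through nearly 1 tag alone, and 0 were called without the most abundant tag.

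**Figure D2:**
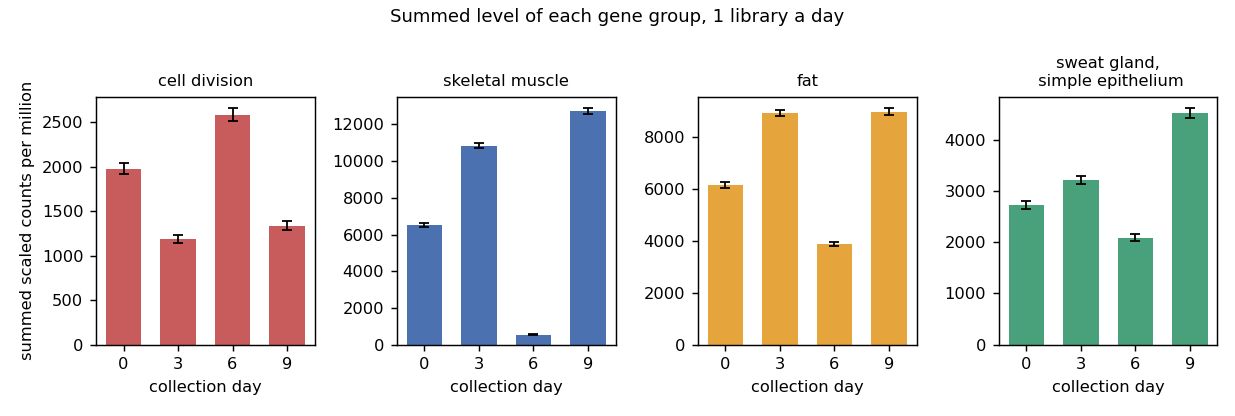
Bars give the summed scaled CPM of each gene group in the library of each collection day, with exact 95% counting intervals. The cell division group was highest on day 6 (2582), the day on which the skeletal muscle (554), fat (3866) and gland (2085) groups were lowest.

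The median was larger for mitotic than for replication genes. Among mitotic genes 9 of 11 with 50 counts were called higher, with a list median of 1.93, and among replication genes 11 of 20, with a median of 1.01. Cdk1, the mitotic kinase that pairs with cyclin B, had 88, 37, 174 and 78 counts on days 0, 3, 6 and 9 and was 4.81-fold (3.4 to 7.14) higher on day 6 than on day 3. Mki67, the proliferation antigen Ki-67, had 31, 10, 55 and 29 counts and was 5.47-fold (2.87 to 12.5) higher. Stmn1, a microtubule regulator of dividing cells, had 166, 28, 148 and 37 counts and was 5.39-fold (3.63 to 8.51) higher. These 3 genes were lowest on day 3 of the 4 days. Cks2, a partner of Cdk1, had 83, 31, 117 and 58 counts, Birc5, the survivin of the chromosomal passenger complex, 54, 16, 71 and 32, and Spc25, a kinetochore protein, 21, 11, 55 and 20. Their ratios were 3.86-fold, 4.48-fold and 4.99-fold. The cyclin genes had too few counts for the rule: Ccnb1 had 27, 8, 28 and 19 and Ccna2 had 8, 7, 38 and 12. Top2a, the topoisomerase that untangles sister chromosomes, had 11, 0, 7 and 0.

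By role, among genes that supply nucleotides for DNA, the 4 members described here with 50 counts were all called higher. They were Rrm1 and Rrm2, the subunits of ribonucleotide reductase, Tk1 and Dut. Other roles had like shares: 2 of 2 for kinetochore and checkpoint, 2 of 2 for spindle and cytokinesis and 5 of 6 for chromosome structure. Shares were lower for polymerases, clamp and loader (4 of 9) and the helicase and its partners (0 of 3). Rrm1 had 103, 32, 127 and 48 counts on days 0, 3, 6 and 9 and was 4.06-fold (2.77 to 6.26) higher on day 6, and Rrm2 had 37, 22, 57 and 54 and was 2.64-fold (1.61 to 4.61) higher. Pcna, the sliding clamp of DNA polymerase, had 186, 137, 270 and 118 counts and was 2.04-fold (1.65 to 2.52) higher. The MCM genes, which encode the replicative helicase, stayed under the rule. Mcm6 had 140, 85, 152 and 60 counts (1.85-fold, 1.41 to 2.44), Mcm2 had 56, 53, 93 and 23 (1.81-fold, 1.28 to 2.59), and Mcm7 had 91, 101, 134 and 69 (1.37-fold, 1.05 to 1.8). The other 3, Mcm3, Mcm4 and Mcm5, had too few counts for the rule whatever their ratio. Mcm3 had 18, 8, 21 and 7 counts (2.62-fold, 1.16 to 7.09) and Mcm5 had 28, 13, 24 and 3 (1.88-fold, 0.935 to 4.09). Mcm4 had 104, 13, 31 and 51 (2.41-fold, 1.25 to 5.14). Median log2 ratios by role were 2.12 for kinetochore and checkpoint genes, 1.95 for cyclins, Cdk1 and mitotic kinases, 1.73 for chromosome structure, 1.63 for spindle and cytokinesis, 1.37 for nucleotide supply, 0.99 for the helicase and its partners, 0.74 for polymerases, clamp and loader, and 0.68 for origin licensing. These medians rest on 8, 9, 7, 7, 5, 10, 17 and 8 members in that order. Of kinetochore and checkpoint genes 2 reached 50 counts, and of origin licensing genes 0 did. The order of the roles was not tested.

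**Figure D3:**
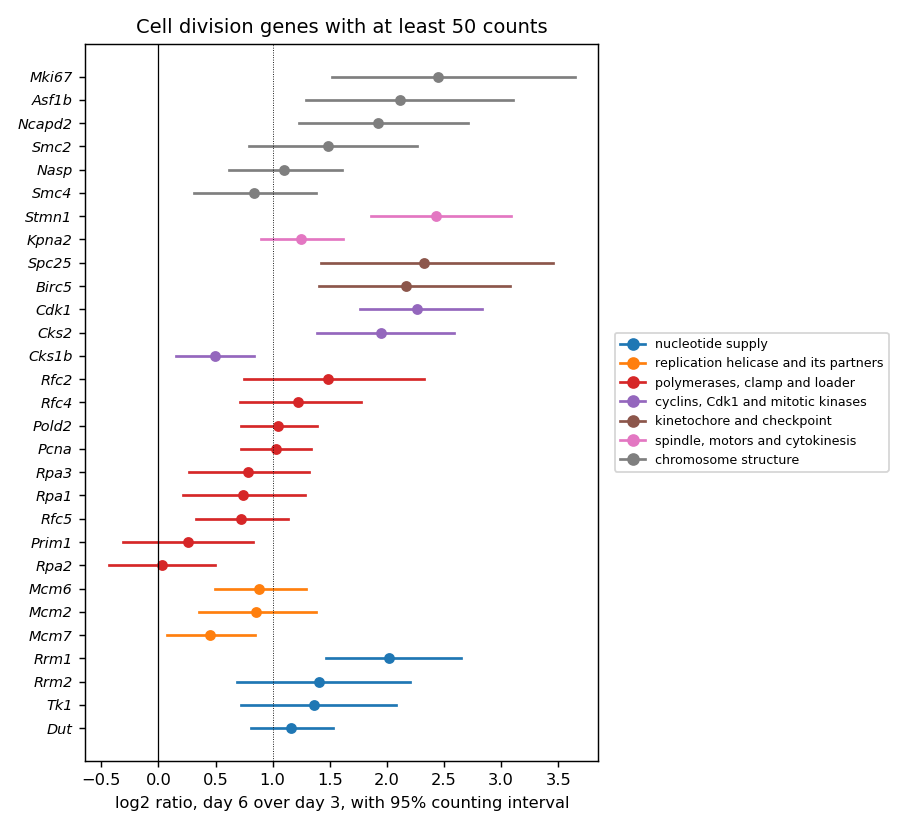
Points give the log2 ratio of day 6 over day 3 for 29 cell division genes with a role and at least 50 counts, with lines for the 95% counting interval and colours for the role. All 29 points lie above 0, the dotted line marks 2-fold, and Rpa2 and Prim1 are the genes nearest to no difference.

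The promoters of these genes were described because the members moved together. RefSeq promoters of the GRCr8 build were searched in the 250 bases before the start, on both strands, for TTTGAA (the CHR element of mitotic genes), for CCAAT, and for TTTCGCGC, TTTGGCGC or TTTCCCGC (E2F-type sites). Of the 20 members called higher, 18 had a promoter in the table. TTTGAA stood in 9 of these (50%) against 16.0% of all 27457 promoters, CCAAT in 14 (77.8%) against 34.3%, and an E2F-type site in 2 (11.1%) against 1.49%. Among all 96 cell division members with a promoter in the table, called or not, the shares were 32.3%, 61.5% and 15.6%, and among 40 muscle members called lower they were 15%, 50% and 2.5%. A match is a description of the letters and not a measured binding site. The promoter of Cdk1, shown because it holds all 3 motifs, lies at chr20:19265043-19265292 on the plus strand of GRCr8, and capitals mark the matches.

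Cdk1 promoter: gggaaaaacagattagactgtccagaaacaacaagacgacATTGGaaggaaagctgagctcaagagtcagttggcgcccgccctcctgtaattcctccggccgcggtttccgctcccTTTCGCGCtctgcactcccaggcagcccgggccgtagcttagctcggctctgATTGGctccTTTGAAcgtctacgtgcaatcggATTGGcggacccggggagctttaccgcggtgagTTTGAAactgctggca

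Genes that control entry to the cell cycle or hold it back were not called between days 3 and 6. Of 13 G1 and inhibitor genes with 50 counts, 0 were called in either direction, where 9.63% of all tested genes were called, so about 1 call would be the background share. Their median was 0.27, and −0.11 when scaled by the basal keratinocyte genes. Cdkn1a, which encodes p21, had 291, 1197, 1303 and 947 counts on days 0, 3, 6 and 9, a ratio of 1.13-fold (1.04 to 1.22) between days 6 and 3. Different tags carried that sum on the compared days: the most abundant tag of Cdkn1a had 0 copies on day 3 and 1206 on day 6, and its other tags 1197 and 97. Ccng1, the p53 target cyclin G1, had 303, 1885, 1776 and 1831 counts, and Mdm2, which degrades p53, had 30, 129, 125 and 164. These genes were above their day 0 counts on both days, and the gene sums of the compared days differed by at most 1.13-fold. Among 16 p53 targets with 50 counts, Plk3 and Gadd45a were called higher and 0 were called lower, with a list median of 0.15 and of −0.23 when scaled by the basal keratinocyte genes. Gadd45a, a growth arrest gene, had 25, 28, 63 and 59 counts and was 2.31-fold (1.47 to 3.77) higher. Ccnd1, the cyclin of G1, had 761, 500, 669 and 550 counts, a ratio of 1.38-fold (1.23 to 1.56).

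Skeletal muscle transcripts were nearly missing from the day 6 library. Of 145 listed muscle genes, 116 were found, 53 reached 50 counts, and 50 of these were called lower and 0 higher, where 6.74% of all tested genes were called lower. The summed level was 6521 scaled CPM on day 0, 10836 on day 3, 554 on day 6 and 12707 on day 9. The median log2 ratio of the 74 members that averaged 10 counts or more was −6.29, or −4.11 with each count of 0 set to the floor of 3 counts. Of the 116 genes, 72 were at 0 on day 6 and 0 were at 0 on day 3. Across all tested genes, 43 (0.843%) had 0 counts on day 6, and 32 of the 43 were muscle genes. These 32 genes had 186 tags and 7246, 14818, 0 and 14958 summed counts on days 0, 3, 6 and 9. For a single gene, a count of 0 on day 6 allows up to 1.54 scaled CPM.

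Each of the 15 called genes with the lowest ratios and an established symbol was a muscle gene, and each was at 0 on day 6. Myl1, a myosin light chain of fast fibres, had 2021, 5394, 0 and 4705 counts and was at least 1738-fold lower on day 6 than on day 3. Myh2, a fast myosin heavy chain, had 982, 2139, 0 and 1613 and was at least 689-fold lower. Of 10 fast fibre genes with a row, 8 were at 0 on day 6, and of 7 slow fibre genes 7 were. Among those with 50 counts, 4 of 6 fast and 5 of 5 slow fibre genes were at 0. Myh7 and Myl2, the slow myosin chains, had 70, 173, 0 and 155 and 94, 277, 0 and 273 counts. Tnnt1, a troponin of slow fibres, had 375, 1051, 0 and 954 counts and was at least 339-fold lower. Tnni2, a different troponin subunit, of fast fibres, had 229, 525, 0 and 597.

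Genes of other parts of the muscle cell were also low. Of calcium handling genes, 8 of 8 were called lower. Atp2a1, the calcium pump of the fast-fibre reticulum, had 933, 1035, 3 and 966 counts, a ratio of 286-fold (114 to 1619), and Trdn, which anchors the calcium release complex, had 162, 177, 0 and 241. Of muscle metabolism genes, 15 of 16 were called lower: Ckmt2, the mitochondrial creatine kinase, had 169, 604, 0 and 886 counts, Cox6a2, the muscle form of a cytochrome oxidase subunit, 282, 528, 0 and 662, and Eno3, the muscle enolase, 364, 280, 0 and 252. Of the 1078 counts of muscle genes on day 6, 941 lay in 14 genes with more than 20 counts. The cell source of these counts was not tested. Tpm1, a tropomyosin that smooth muscle and fibroblasts share, had 885, 946, 388 and 1137 counts (2.35-fold, 2.09 to 2.66). Its most abundant tag had 454 and 370 copies on days 3 and 6, and its other tags 492 and 18. Des, the desmin of all muscle types, had 466, 392, 90 and 536 (4.19-fold, 3.34 to 5.35). Hrc, Tpm2, Myoz1 and Cryab kept 49, 38, 23 and 22 counts on day 6. Mef2a and Tnnt2 were 2 of the 3 members with 50 counts that were not called, at 73 and 60 counts on day 3 and 60 and 56 on day 6, and Asb2 was the other, at 56 and 28.

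Smooth muscle genes were lower by far less than skeletal muscle genes. Of 11 with 50 counts, 1 was called lower. The list median was −0.52, with 13 members below 0 and 2 above. Acta2, the smooth muscle actin, had 589, 1268, 956 and 648 counts, a ratio of 1.28-fold (1.18 to 1.4), and Tagln had 178, 442, 401 and 342. The called gene, Mustn1, is also expressed in striated muscle and had 259, 442, 185 and 613.

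**Figure D4:**
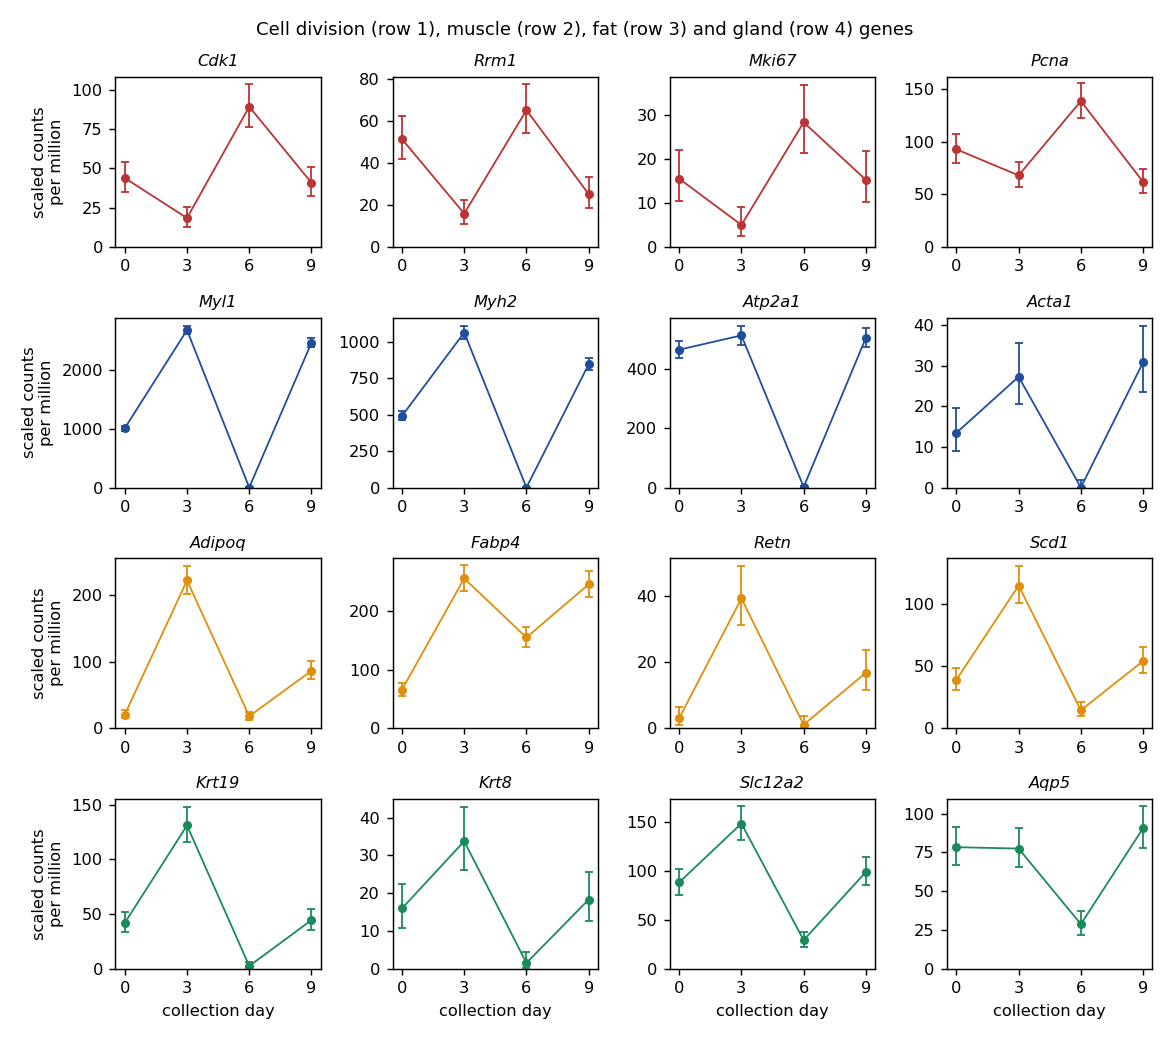
Scaled CPM of 16 genes in the library of each collection day, with exact 95% counting intervals and lines that only join the days. The cell division genes of the top row peak on day 6, while the muscle, fat and gland genes of the other rows are lower on day 6 than on day 3 and higher again on day 9.

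Fat transcripts were lower on day 6 in part of the list. Of 71 listed genes, 58 were found, 34 reached 50 counts, and 11 were called lower and 0 higher. The list median was −0.59, with 37 members below 0 and 9 above. Genes of the fat cell's hormones and lipid droplet had the lowest median of the 3 fat lists, −1.19. Adipoq, the hormone adiponectin, had 41, 448, 35 and 165 counts on days 0, 3, 6 and 9 and was 12.2-fold (8.76 to 18) lower on day 6 than on day 3. Retn, resistin, had 6, 79, 2 and 32 counts and was 30.7-fold (10.2 to 321) lower, and Cidec, a lipid droplet protein, had 13, 56, 4 and 14 and was 12.1-fold (5 to 51.4) lower. For these 3 genes the day 3 count was the highest of the 4 days and the day 6 count was below that of day 0. Rbp4, Plin2, Cidea and Lpl were 3.35-fold, 2.99-fold, 2.74-fold and 2.8-fold lower.

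Other genes of fat cells were closer between the days. Fabp4, the fatty acid carrier of adipocytes and some vessels, had 132, 516, 302 and 470 counts, or 1.65-fold (1.43 to 1.91) lower and under the rule, and Cfd, adipsin, had 129, 233, 134 and 173. The 11 genes of fatty acid and triglyceride synthesis, which sebaceous and epidermal cells also use, had a median of −0.01. Dgat2, the last enzyme of triglyceride synthesis, had 1031, 968, 1017 and 875 counts, and Acly, which makes cytosolic acetyl-CoA, had 784, 777, 775 and 513. The called gene among these 11 was Scd1, a desaturase, with 78, 231, 28 and 103 counts and a ratio of 7.85-fold (5.37 to 12.3). The related Scd row had 701, 606, 769 and 579, and reads of such near copies can be divided between rows.

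The summed fat level, 6143, 8907, 3866 and 8945 scaled CPM on days 0, 3, 6 and 9, turned on 1 gene. Car3, carbonic anhydrase 3, is abundant in fat and in slow muscle fibres, and had 4534, 8149, 251 and 9758 counts, a ratio of 31.3-fold (27.7 to 35.7). Without Car3 the sums were 3880, 4861, 3737 and 3834. Slc2a4, the insulin-regulated glucose carrier of fat and muscle, had 175, 148, 34 and 162 counts and was 4.16-fold (2.88 to 6.3) lower. The part of muscle in the lower values of these 2 genes was not tested.

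Sweat gland and simple epithelium genes were lower on day 6 in part of the list. Of 62 listed genes, 42 were found, 16 reached 50 counts, and 7 were called lower and 0 higher, with a list median of −0.55. The simple epithelium keratins, which glands and ducts hold and the epidermis largely lacks, were lower together. Krt19 had 84, 264, 5 and 85 counts on days 0, 3, 6 and 9 and was 46.5-fold (21.6 to 158) lower on day 6 than on day 3. Krt8 had 32, 68, 3 and 35 counts and was 18.9-fold (7.19 to 109) lower, and its partner Krt18 had 21, 47, 0 and 39, at least 15.1-fold lower but under the count floor of the rule.

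Genes of secretion followed. Atp1b1, a subunit of the sodium pump, had 165, 236, 9 and 167 counts and was 24.1-fold (13.1 to 56.1) lower, and Slc12a2, the chloride importer of the secretory coil, had 177, 299, 57 and 189 and was 5.03-fold (3.81 to 6.85) lower. Aqp5, the water channel of sweat glands, had 157, 156, 56 and 173 counts and was 2.68-fold (1.97 to 3.72) lower, and Fxyd2, a regulator of the sodium pump, had 781, 2233, 772 and 1065 and was 2.79-fold (2.57 to 3.04) lower. Tfcp2l1, a transcription factor of ducts, had 36, 59, 0 and 16. Best2, an anion channel of the secretory coil, had 18, 29, 0 and 9 counts, Atp6v1b1 26, 27, 0 and 20, and Chrm3, the receptor through which nerves start sweating, 3, 19, 0 and 11. Of the genes named in this group, Fxyd2 was close on days 0 and 6, and the others were lower on day 6 than on the other 3 days. Epithelial genes that the epidermis also expresses were near equal, with a median of −0.01 over 8 genes. Rab25 had 399, 352, 368 and 295 counts and Cldn4 203, 165, 146 and 156.

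**Figure D5:**
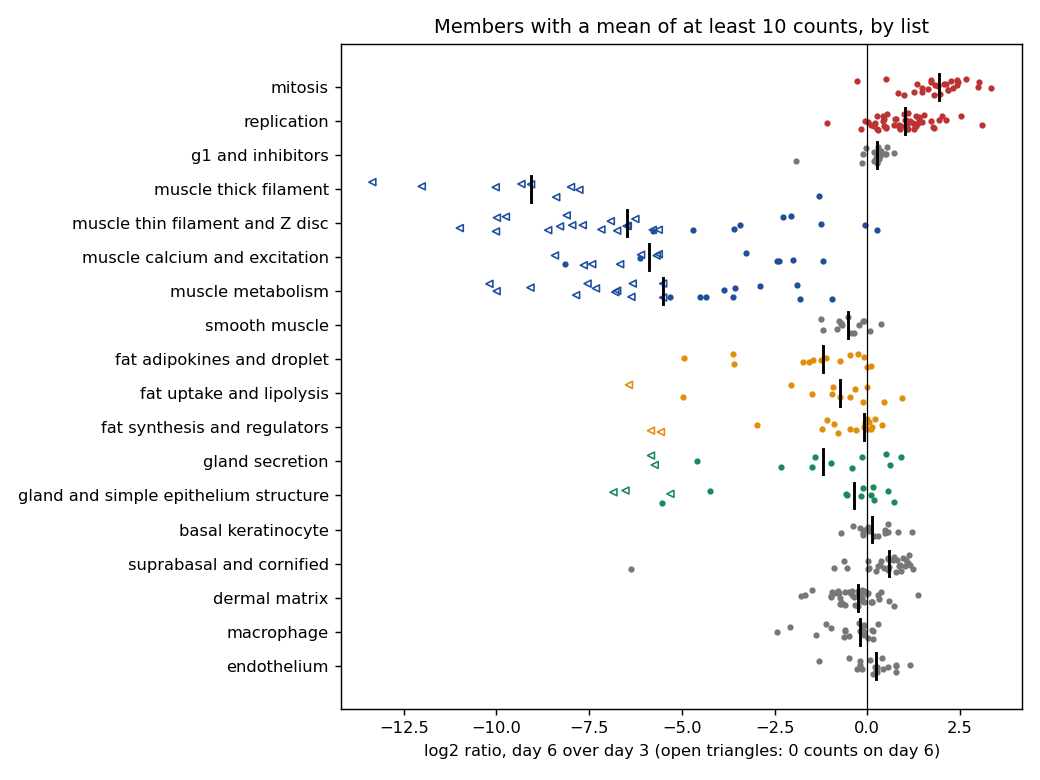
Each point is a gene with a mean of at least 10 counts over both days, placed by its log2 ratio of day 6 over day 3 within its list, with a bar at the list median and open triangles for genes with 0 counts on day 6. The 4 skeletal muscle lists shown have medians of −5.51 to −9.07, the fat and gland lists have medians of −1.20 to −0.09, and mitosis and replication lie at 1.93 and 1.01.

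The counts of the groups were of unequal size. Genes called lower lost 34462 scaled CPM in all, of which muscle lists held 28.7%, fat lists 13.5% and gland lists 3.43%, while 54.4% lay in genes of no such list. Genes called higher gained 17319, of which cell division genes held 4.44%. Of the 344 genes called lower, 276 remained when members of the muscle, fat and gland lists were left out, a choice made after seeing the data, and 147 genes were still higher. Of the unlisted lower genes, Nrap and Fhl1 were named after their values were seen and do not stand for the 276. Nrap, a protein of muscle tendon junctions, had 138, 126, 0 and 234 counts. Fhl1, a LIM protein abundant in muscle, had 885, 1327, 106 and 2556. Of all that was lost, dermal matrix genes held 2.91%, Hbb 2.02% and Krt9 0.796%. The cell source of the other unlisted genes was not tested.

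The epidermis was present in both libraries, and several of its genes were higher on day 6. Of 28 suprabasal and cornified layer genes with 50 counts, 5 were called higher and 1 lower, with a median of 0.57. Krt10, the suprabasal keratin, had 13717, 4763, 10006 and 5777 counts on days 0, 3, 6 and 9 and was 2.17-fold (2.1 to 2.25) higher on day 6 than on day 3. Kprp and Krt2 were 2.34-fold and 2.14-fold higher. Krt1, the partner of Krt10, had 21013, 23380, 38510 and 29506 counts and a ratio of 1.7-fold (1.68 to 1.73). Among basal keratinocyte genes, Krt14 was called, with 295, 144, 319 and 353 counts and a ratio of 2.29-fold (1.88 to 2.81), and 13 others were not. The basal median was 0.12, and −0.01 with the authors' value and −0.26 when the list itself set the scale. The lower member was Krt9, the keratin of palm and sole epidermis, with 153, 559, 6 and 40 counts and a ratio of 83.2-fold (41.1 to 246). Of the stress keratin and alarm genes, 3 of 6 with 50 counts were called higher. Defb4, a beta-defensin, had 15, 112, 551 and 1669 counts and was 5.07-fold (4.15 to 6.29) higher, and LOC683313, a row that the files annotate as keratin 6A, had 432, 1071, 5316 and 66660 (5.13-fold, 4.81 to 5.49). Krt16, another keratin of injured skin, had 0, 0, 37 and 239.

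Markers of other cell types moved less than muscle. Summed levels of the fixed markers on day 3 and day 6 were 4571 and 5.65 scaled CPM for skeletal muscle. Of its 10 markers 8 were at 0 on day 6, but Ckm, Myh4, Tnnc2 and Actn3 had only 7, 5, 9 and 5 counts on day 3. The sums were 424 and 62.2 for sweat gland and simple epithelium with 2 of 6 at 0, and 691 and 265 for fat with 1 of 7 at 0. They were 14300 and 25330 for keratinocytes, 28977 and 23192 for fibroblasts, 874 and 713 for smooth muscle, 337 and 303 for macrophages, 49.2 and 91.5 for endothelium, 310 and 154 for mast cells and 388 and 236 for Schwann cells. Some of these sums rest on few genes. In endothelium Vwf had 73 and 158 counts on days 3 and 6, but Pecam1 had 24 and 20 and Cdh5 2 and 0. The keratinocyte sum was mostly Krt1 and Krt10, and its marker Tp63 had 513 and 467. Plantar epidermis, with Krt9 as its 1 marker, was at 278 and 3.08. Red blood cell markers were at 759 and 53.4: Hbb, a beta-globin, had 35, 1510, 104 and 579 counts and was 14.0-fold (11.5 to 17.3) lower. Dermal matrix genes had a median of −0.24, with Fmod and Lum called lower, Fbn1 called higher and 33 not called. Col1a1 had 2001, 22815, 12663 and 12260 counts, a ratio of 1.74-fold (1.7 to 1.78). Genes of the nuclear respiratory chain, which muscle holds in abundance, had a median of −0.38 and 5 of 42 called lower. List medians were −0.83 for mast cell, −0.64 for interferon and antigen, −0.21 for macrophage and 0.24 for endothelial genes. The mast cell and interferon medians were thus below those of the fat (−0.59) and gland (−0.55) lists. The part of tissue makeup in these values was not tested. The depth of the skin sample, its place on the foot and the day of collection cannot be told apart with 1 library a day.

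The genes highest on day 6 and outside the cell division lists were of several kinds. Ubb, a ubiquitin gene, had 321, 191, 1529 and 1663 counts and was 8.26-fold (7.12 to 9.68) higher, but ubiquitin genes share sequence and their reads can be divided between rows. Wfdc18, a secreted protein, had 611, 299, 1274 and 1432 counts and Serpina3n, a protease inhibitor, 244, 127, 575 and 120. Serpinb3, a protease inhibitor of stratified epithelia, had 104, 89, 286 and 568, and Ptgr1, a reductase of lipid mediators, 80, 106, 274 and 374. Ebna1bp2, a ribosome assembly factor, had 18, 17, 115 and 124. Vimp had 82, 80, 226 and 410.

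Some calls rested on 1 tag that a library lacked or nearly lacked. Of the 491 called genes, 73 had 1 tag, and 54 still had 50 counts without their most abundant tag. Of these 54, 41 were called the same way without it and 1 the opposite way. In 9 called genes the most abundant tag had at most 3 copies in the lower library while the other tags of the gene had at least 10. The tags below were chosen after their values were seen. Aplp2 is one of these 9 genes, Ddx39b and Abhd16a are called genes whose counts lay nearly all in 1 tag, and Mcm4 and Cdkn1a were not called.

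Ddx39b: CATGcctctctgcgtcaccac
Abhd16a: CATGgaagctcccagctcccc
Aplp2: CATGcctcttcccactatgca
Mcm4: CATGttcctaaataaatgata
Cdkn1a, first tag: CATGtattttggtcccttccc
Cdkn1a, second tag: CATGtattttggtcccctccc

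The Ddx39b tag had 458, 477, 0 and 0 copies on days 0, 3, 6 and 9, and the Abhd16a tag 0, 0, 114 and 73. The Aplp2 tag had 227, 3, 226 and 206 copies, while the other tags of Aplp2 summed to 65 on day 3 and 83 on day 6. The Mcm4 tag had 98, 0, 0 and 38 copies, so the Mcm4 counts of 13 and 31 on days 3 and 6 came from other tags. In Adh7 the other tags went the opposite way from the gene, with 85 copies on day 3 and 9 on day 6. Myoz1, a muscle gene called lower from 262 to 23 counts, had 22 and 23 copies without its most abundant tag. The first Cdkn1a tag had 118, 0, 1206 and 457 copies and the second 142, 1100, 0 and 397, so each of the compared libraries held 1 of the pair and the other 2 libraries held both.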

How the data were processed

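Footpad skin of 4 collection days was measured, 1 library a day, and days 6 and 3 were compared. Per the file headers and values, the authors summed the copies of tags seen at least 2 times into whole-number counts per gene. A second deposited column, although headed TPM, is CPM: the authors divided by all tags seen at least 2 times and not by length. It served only as an alternative. The assembly was Rnor_6.0, per the submitters' processing notes, and for the aligner and annotation the entry is "not given in the sources used here". Symbols of the files were kept; 11247 of 11471 numeric gene IDs matched the reference table of the GRCr8 assembly, and 7486 entries had UniGene-type identifiers alone. In no gene stood 39.4 and 42.9% of the tags on days 3 and 6. No column of unmapped samples was found.

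Counts were scaled by TMM factors (edgeR 4.0.16, over 4 libraries; 1.02 for day 3 and 0.989 for day 6). Ratios used a prior count of 0.5 and exact 95% Clopper-Pearson intervals (scipy 1.17.1). A library at 0 was given a floor of 3 counts, so a ratio printed as at least is a bound by that floor. It is not the end of a 95% interval. PCR copies are not independent molecules, so intervals cover counting error only. No test across animals is possible with 1 library a side: edgeR was used for scaling alone. The rule was run on simulated counts that held counting error alone. That run cannot judge calls between single libraries, because it held no differences between animals or skin samples.

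The members, the 33 gene lists, the roles and the rules were chosen with earlier results of these data known. Named genes were the 15 highest and 15 lowest called genes with at least 100 counts and an established symbol, up to 6 called and 4 abundant members of each list, and a standing list of cell type and cell cycle genes; a few of these are not reported here. Alternatives covered scaling (totals, DESeq2 1.42.0 size factors, totals without abundant or deep-tissue genes), count floors, the interval, the prior count, tags and identifiers.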

Additional observations from a re-analysis of the deposited data

Results flagged for a closer look

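Tags that stood in no gene were not part of the gene comparison and were counted apart. Of 2739 such tags with at least 50 copies on day 3 or day 6, 212 (7.74%) were higher on day 6 by the rule used for genes and 211 (7.7%) were lower. Among tested genes, 2.88% were higher and 6.74% lower. Of the tags higher, 104 were past the rule against day 0 as well, and 12 had 0 copies on day 0. No share over all tags or genes was worked out for the 104 and the 12. Several tags can stem from 1 gene, so these are not counts of genes. The genes behind these tags were not looked for here.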

How the results depend on the processing

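No paired analysis was possible because each day had 1 library. The medians of all 4 gene groups kept their sign under each alternative tried, and those of cell division (0.86 to 1.31), fat and gland stayed within 1.5-fold of the reported value. The muscle median was −4.01 with the authors' value plus 1, −4.41 with a floor of 10 counts or none, −7.96 with a floor of 200, −3.46 with a prior count of 5 and −5.44 without each gene's most abundant tag. Genes higher and lower numbered 84 and 415 with the authors' value (16.8% of called genes higher, against 29.9%), 427 and 961 with a floor of 10, 40 and 101 with 200, 519 and 1133 with none, and 36 and 60 without the most abundant tag. Scaled by the summed basal keratinocyte genes, an alternative chosen after seeing the data, they numbered 47 and 680 (6.46% higher), the median of all genes moved by −0.38, and 13 cell division genes were higher. Cell division genes higher numbered 56 with a floor of 10, 4 with 200, 58 with none and 0 without the most abundant tag. Muscle genes lower numbered 76, 23, 81 and 7 in that order, fat genes 18, 5, 22 and 4, and gland genes 15, 4, 16 and 1. A higher floor and the removal of a tag leave fewer genes that can be called. Of 46 named genes, the 19 called ones kept their direction in all 163 values under alternatives. The 27 others changed sign in 11 of 230 values, in Cd68, Cdkn1a, Krt17 and Mdm2, and the log2 ratio of Cdkn1a was −3.57 without its most abundant tag.

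Depth limits the cell division result: 31 of 116 members reached 50 counts. With 1 library a day, differences between animals, sample depth, sample place and day cannot be told apart.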
